A study of Drosophila melanogaster with 3 samples.

Results

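The genes described here encode the subunits of Mediator and of the TBP-associated factor (TAF) complexes, together with TBP itself. They were chosen by name, as the protein-coding genes of the Ensembl annotation whose symbols begin with MED, or with Taf and a digit, plus skd, kto, CycC, Cdk8 and Tbp. The rule gave 45 genes, 29 of Mediator and 16 of the TBP and TAF group, out of 13945 protein-coding genes on the 6 chromosome arms. The study mapped the binding of CG8159, a predicted zinc-finger DNA-binding protein, by chromatin immunoprecipitation and sequencing (ChIP-seq) in whole Drosophila melanogaster pupae aged 24 hours. All samples formed 1 group of 3 biological replicates from a single transgenic line that stably expressed CG8159 with GFP at its C-terminus, with males and females pooled. The chromatin was sonicated to fragments of 200 to 800 bp and precipitated through the GFP tag, per the sample descriptions, while the antibody field of the same labels names CG8159. With 1 genotype and 1 stage the data hold binding sites and no contrast between conditions. Every tissue of the pupa was pooled, so a site in a few cell types and a weak site in all of them cannot be told apart, and the tagged protein may not bind as the untagged one does, which was not tested.

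Mediator is a large complex that links DNA-bound activators to RNA polymerase II, and it is built from a head, a middle and a tail arranged around the scaffold subunit MED14. A separable kinase module of Cdk8, CycC, kto (the fly Med12) and skd (the fly Med13) can dock on it and regulate its contact with the polymerase. TBP and the TAFs form TFIID, the general factor that recognises core promoters and starts assembly of the transcription machinery.

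The authors deposited a peak list for each replicate, a list called on the 3 replicates pooled, and a list of peaks that passed a test of reproducibility between replicates (irreproducible discovery rate, IDR). Each peak has a summit, the base of highest enrichment, and a signal, the peak caller's own strength value on a scale that the sources do not state. A gene was counted as occupied where a summit lay within 500 bp of any of its annotated start sites. The sequences at the summits are shown first because their base composition varied among the occupied genes. Each holds the summit and 50 bases on each side of it, from the reference genome (RefSeq, Drosophila release 6 assembly, dm6), written 5′ to 3′ in the direction of the named gene, with runs of 6 or more A or T bases in capitals. The windows are chr3L:9888895-9888995 on the minus strand for Taf2, chr3R:18188880-18188980 on the plus strand for MED17, chr3R:4641700-4641800 on the plus strand for MED31, chr3L:21027736-21027836 on the minus strand for skd, chr3L:16232011-16232111 on the plus strand for MED10 and chr3R:9767792-9767892 on the minus strand for MED6 (b). The last is the weaker of the 2 summits at MED6.
Taf2: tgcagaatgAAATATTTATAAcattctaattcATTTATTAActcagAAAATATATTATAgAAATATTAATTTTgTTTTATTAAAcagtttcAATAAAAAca
MED17: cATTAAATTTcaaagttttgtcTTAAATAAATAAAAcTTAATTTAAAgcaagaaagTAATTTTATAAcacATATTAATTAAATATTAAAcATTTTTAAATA
MED31: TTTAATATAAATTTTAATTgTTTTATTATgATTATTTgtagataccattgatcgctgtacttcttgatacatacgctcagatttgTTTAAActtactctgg
skd: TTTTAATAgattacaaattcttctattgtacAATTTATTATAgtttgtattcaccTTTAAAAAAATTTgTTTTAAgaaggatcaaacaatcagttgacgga
MED10: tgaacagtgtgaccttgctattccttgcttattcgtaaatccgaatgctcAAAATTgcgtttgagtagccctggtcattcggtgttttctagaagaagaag
MED6 (b): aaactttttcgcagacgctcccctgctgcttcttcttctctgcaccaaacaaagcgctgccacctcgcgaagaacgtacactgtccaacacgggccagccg

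In the window of MED17 A and T made up 87.1% of bases, and in that of Taf2 84.2%. MED31, at 74.3%, held an unbroken A/T run of 19 bases, as long as the longest run at MED17. The windows of MED10 and MED6 (b) held 58.4% and 43.6% A and T, and in MED6 (b) no run reached 6 bases. The whole stretch between 2 divergent start sites is shown for one occupied gene pair, MED27 and elm, because its summit lay near the middle of the stretch. It covers 279 bp at chr3R:5654861-5655139 on the plus strand, has 64.2% A and T, and the 41 bases around the summit are in capitals.
elm to MED27: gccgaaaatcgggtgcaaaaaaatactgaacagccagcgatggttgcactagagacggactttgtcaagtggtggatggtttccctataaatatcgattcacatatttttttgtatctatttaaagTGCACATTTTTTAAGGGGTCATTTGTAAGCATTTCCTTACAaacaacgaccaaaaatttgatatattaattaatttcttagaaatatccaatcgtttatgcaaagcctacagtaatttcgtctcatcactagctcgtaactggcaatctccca

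In the IDR list 15 of the 45 genes were occupied (33.3%, Wilson 95% interval 21.4 to 47.9), against 22.9% of all protein-coding genes. Mediator genes made up most of them, with 12 of 29 occupied (41.4%, interval 25.5 to 59.3), while 3 of the 16 TBP and TAF genes were (18.8%, interval 6.59 to 43.0). The share of all protein-coding genes lay inside the intervals of all members and of the TBP and TAF genes, and below the interval of the Mediator genes. For Mediator this held in the IDR list and not in every list or assignment: the share was 51.7% in the pooled list (interval 34.4 to 68.6), against 37.1% of protein-coding genes, and 27.6% with summits given to the closest gene only (interval 14.7 to 45.7), against 17.7%, and both intervals contain the share of protein-coding genes. Among genes with a divergent neighbour, another gene starting at most 500 bp upstream on the other strand, 55.0% of Mediator genes were occupied (interval 34.2 to 74.2), against 36.1%, again inside the interval. The intervals cover counting error only, neighbouring genes share summits, and the 2 complexes were not tested against each other. The count of 15 rests on letting a summit count for every gene within reach. When a summit counted only for its closest gene, 8 members were occupied (17.8%), all of Mediator, against 17.7% of protein-coding genes. Genes at an equal distance all kept the summit, and MED10 was counted through such a tie with PDCD-5. With only the 5119 IDR peaks of highest signal, 9 members were occupied (20%), against 13.5% of protein-coding genes.

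The replicates were compared through equal numbers of peaks, the 10239 strongest of each, which is the length of the IDR list. In these, 16 members (35.6%) were occupied in replicate 1, 14 (31.1%) in replicate 2 and 15 (33.3%) in replicate 3. The corresponding shares of all protein-coding genes were 24.8%, 23.7% and 22.7%. The members' share was above that of protein-coding genes in all 3 replicates, with means of 33.3% ± 2.22 for members and 23.7% ± 1.03 for protein-coding genes (SD, n = 3). Mediator genes were occupied at 42.5% ± 1.99 and TBP and TAF genes at 16.7% ± 3.61, without overlap between replicates. These SDs describe how repeatable the peaks were over the same genes and not the spread among genes. When all 30000 peaks of each replicate were used, 26 members (57.8%) were occupied in replicate 1, 21 (46.7%) in replicate 2 and 17 (37.8%) in replicate 3, against 40.7%, 39.7% and 36.9% of protein-coding genes. In the pooled list 21 members were (46.7%, interval 32.9 to 60.9), against 37.1%.

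**Figure D1:**
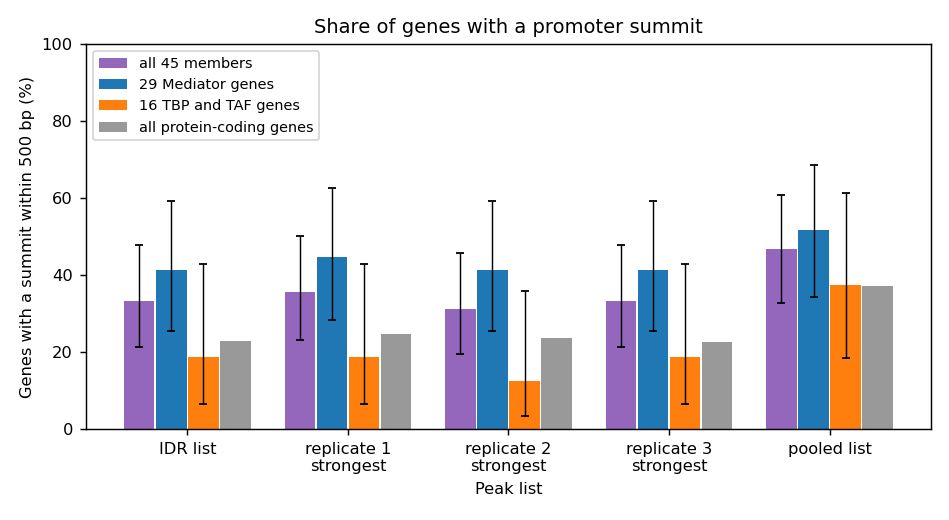
Share of genes occupied, in percent, for all members, Mediator genes, TBP and TAF genes and all protein-coding genes, in the IDR list, the 10239 strongest peaks of each replicate and the pooled list; error bars are Wilson 95% intervals. Mediator genes lie at 41.4% and TBP and TAF genes at 18.8% in the IDR list, against 22.9% of all protein-coding genes.

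The TFIID genes with a summit included the strongest and the second strongest of all members. At Taf2, whose protein contacts the initiator element of core promoters, the peak at chr3L:9888672-9889145 had a signal of 3644 and ranked 346 in the IDR list. The same site ranked 231, 643 and 335 in replicates 1, 2 and 3, with signals of 1728, 781 and 1163 on each list's own scale. The summit lay 262 bp upstream of Taf2 and inside an exon of CalpB, a calpain protease gene that runs the other way and has annotated start sites on both sides of the summit. At Taf5, a scaffold subunit of TFIID, the peak at chr2R:10879661-10880022 had a signal of 3163 and lay 166 bp upstream. Its ranks of 500, 458 and 427 in replicates 1, 2 and 3 were the closest to one another among the 3 TAF genes. It stood between Taf5 and Pex6, which encodes an ATPase of peroxisome biogenesis. Taf13, a histone-fold partner of Taf11, had a weaker summit at chr2L:20093832-20094247, with a signal of 463, 191 bp upstream of its start site. This one lay in an exon of nesd, which encodes a cytokinesis protein, and it ranked 5141, 10330 and 5072 in replicates 1, 2 and 3, so that replicate 2 placed it just outside its strongest 10239 peaks.

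Among the other TBP and TAF genes, Taf8 had a pooled-list summit 145 bp upstream, at pooled rank 21102, and a peak in replicate 2 alone. The neighbouring genes Taf10 and Taf10b, which encode paralogous histone-fold subunits, shared 1 weak pooled-list summit with a signal of 79.5 that only replicate 1 also held. Tbp, the DNA-binding core of TFIID, had no pooled summit within 500 bp, although replicates 1 and 2 each listed a peak there at ranks 13578 and 14445. Taf12 had a peak in replicate 1 alone. Taf1, Taf3, Taf4, Taf6, Taf7, Taf9, Taf11 and Taf12L had no summit within 500 bp in any list.

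In the Mediator head 3 of 7 genes were occupied. MED17, a core subunit of the head, had the strongest of these summits, with a signal of 1424 at chr3R:18188757-18189081, 142 bp upstream. Its ranks were 1788, 1984 and 1324 in replicates 1, 2 and 3. MED8 had a signal of 401 at chr2R:20326805-20327220 and ranked 5633, 10982 and 7345, again lowest in replicate 2. MED6 was the only member with 2 IDR summits, at chr3R:9768310-9768725 (a) and chr3R:9767634-9768049 (b), with signals of 297 and 280. MED6 has 5 annotated start sites, and both summits lay inside its own span, 16 and 27 bp upstream of one of these start sites. Both also lay inside the overlapping gene Naa80. Summit (b) was nearer to a start site of Naa80, at 8 bp, than to one of MED6. Summit (a) ranked 13598, 6790 and 7529 in replicates 1, 2 and 3, while (b) ranked 8456 in replicate 1, had no replicate 2 summit within 100 bp, and ranked 9647 in replicate 3. It was the only member summit that a replicate list lacked. MED11 had a peak in replicate 1 alone, at rank 29454, and MED18, MED20 and MED22 had none.

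In the middle module 4 of 9 genes were occupied. MED31 had a signal of 1457 at chr3R:4641601-4641896 and ranked 1789, 1875 and 1486 in replicates 1, 2 and 3. MED31 and slx1, which encodes a subunit of a structure-specific endonuclease, share an annotated start site, so their occupancy cannot be told apart, and the summit also lay in an intron of the divergent gene CG9775. MED4 had a signal of 880 at chr3L:7250589-7250795 and ranked 3179, 3172 and 3092, the narrowest range of any member beside Taf5, with the summit inside an exon of an antisense RNA gene. MED10 and MED21 were weaker, with signals of 504 and 322 at chr3L:16231853-16232268 and chr3L:25115781-25116196. At MED10 the start site of PDCD-5 on the opposite strand is 46 bp away, and the summit lay 23 bp upstream of both genes. MED21, which in yeast forms a hinge with MED7, was the one occupied member without a divergent neighbour, and its site ranked 6712, 14937 and 6396 in replicates 1, 2 and 3.

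Of the middle subunits outside the IDR list, MED19 came closest, with a signal of 243 and a pooled rank of 10314. The pooled peaks down to rank 10239 are the IDR list. MED19 had peaks in replicates 1 and 2 and none in replicate 3. MED26 had a peak in replicate 1 alone, and MED1, MED9 and the scaffold gene MED14 had none in any list.

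In the tail and its neighbouring subunits 4 of 8 genes were occupied, including the strongest Mediator genes. MED27 had a signal of 1952 at chr3R:5654852-5655176 and ranked 1181, 987 and 1194 in replicates 1, 2 and 3. Its summit lay 132 bp upstream of MED27 and 146 bp upstream of elm, as in the stretch printed above. MED30 had a signal of 1800 at chr3L:654098-654387, with ranks of 1401, 1095 and 1310, between MED30 and Rev1, which encodes a translesion DNA polymerase. MED25, known in mammals as a target of transcriptional activators, had a signal of 767 at chr3R:20008759-20008930 and ranked 3708, 4562 and 3180. MED16 had a signal of 490 at chr2R:22182803-22183218 and ranked 5425, 5850 and 6096. Thus both MED27 and MED30 stood in the strongest 1401 peaks of every replicate, well above MED25 and MED16. MED23 had a weak pooled summit with a signal of 105 just inside the gene, present in all 3 replicates, and MED24 and MED28 had none in any list.

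In the kinase module skd alone was occupied, with a signal of 613 at chr3L:21027684-21027868 and ranks of 3833, 5537 and 4846 in replicates 1, 2 and 3. The summit lay 352 bp upstream of skd and 129 bp upstream of Pdss2, which encodes a subunit of an enzyme of coenzyme Q synthesis. CycC had a pooled summit 36 bp upstream with a signal of 134, listed in replicates 1 and 2. Its partner Cdk8 had no summit in any list, nor did kto.

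**Figure D2:**
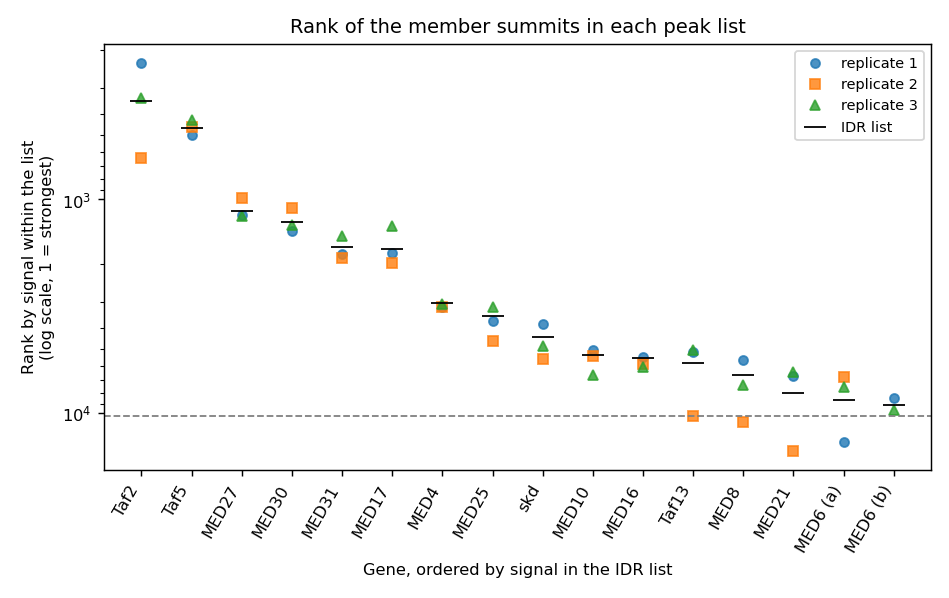
Rank of each occupied member's site in the IDR list and in each replicate's list of 30000 peaks, on a log axis with the strongest at the top; the dashed line is rank 10239. Taf2, Taf5, MED27 and MED30 stay in the strongest 1401 peaks of every list, while Taf13, MED8 and MED21 fall below the line in replicate 2 and MED6 (a) in replicate 1; MED6 (b) has no replicate 2 summit within 100 bp.

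Across the occupied members the highest signal had a median of 767 (297 to 3644, n = 15), against 663 over the 3190 occupied protein-coding genes, whose quartiles were 378 and 1349. Of the members, 8 lay above the median of protein-coding genes, 6 above their upper quartile and 2 below their lower quartile. The 12 Mediator genes had a median of 690, and the 3 TAF genes had one of 3163. Thus Taf2 and Taf5 were high while Taf13 lay below the median of protein-coding genes, and Mediator genes fell equally on both sides of it. The summits of the 3 TAF genes were each nearer to a neighbour's start site, as were those of MED30, MED31, MED4, skd and MED6 (b). The TAF summits lay 159 bp from the start site of CalpB, 135 bp from that of Pex6 and 55 bp from that of nesd. With summits given only to their nearest gene, ties kept, the members' median was 497.

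All 16 member summits lay upstream of the start site they were assigned to, at a median position of -149 bp (range -352 to -16). Over all protein-coding genes 81.1% of gene and summit pairs were upstream, at a median position of -150, and 83.7% were where the gene had a divergent neighbour. In the strongest peaks of replicates 1, 2 and 3 the members' share upstream was 17 of 17, 15 of 15 and 15 of 16 (93.8%), against 80.6%, 80.7% and 83.2% of pairs over protein-coding genes, and in the pooled list it was 24 of 27 (88.9%). The summits of single replicates lay a median of 16 bp, and at most 63 bp, from the IDR summit (47 values). The strongest 10239 peaks of all 3 replicates overlapped 11 of the 16 member summits and those of 2 replicates the other 5, while 78.1% of the 2904 promoter summits of protein-coding genes were overlapped in all 3.

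**Figure D3:**
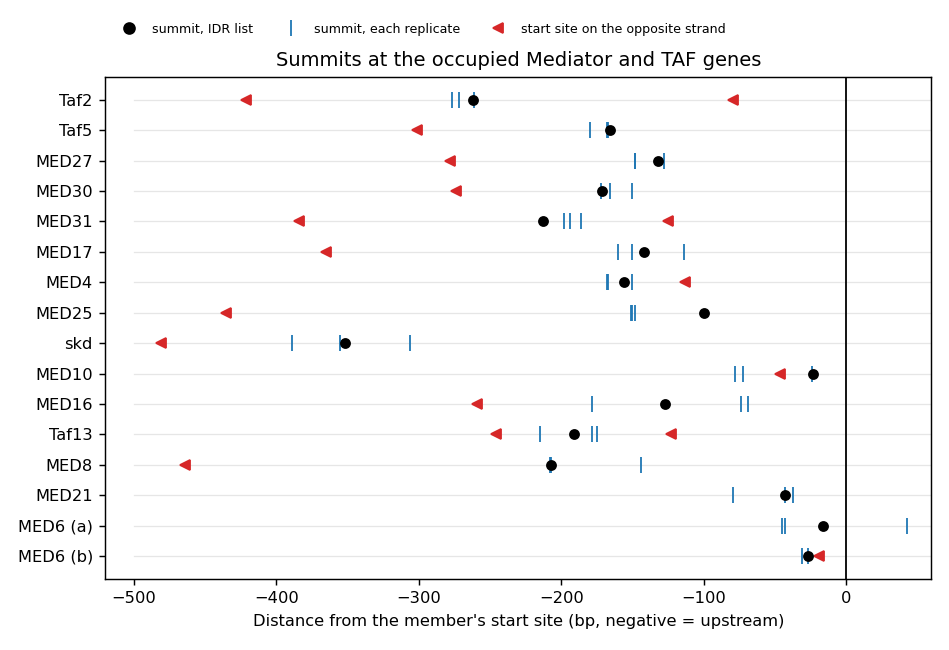
Position of each occupied member's summit in bp from the member's start site (vertical line at 0, negative is upstream), in the IDR list and in each replicate, with start sites on the opposite strand up to 500 bp upstream marked by triangles. The 16 IDR summits lie between -352 and -16, and most stand between the member's start site and one on the opposite strand.

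Of the 15 occupied members 14 belonged to divergent gene pairs, in which another gene starts at most 500 bp upstream and runs the other way. Of the 3190 occupied protein-coding genes 1494 did. The divergent neighbour of MED4 was an antisense RNA gene, and that of MED6 was the overlapping gene Naa80. Of all members, 29 (64.4%) had such a neighbour, against 29.6% of protein-coding genes. Among the 29, 14 were occupied (48.3%), against 36.1% of protein-coding genes with a divergent neighbour. Among the 16 without one, only MED21 was (6.25%), against 17.3%. The distance between the paired start sites had a median of 266 bp for the 14 occupied members (19 to 481) and of 88.0 bp for the 15 unoccupied ones (26 to 415), against 262 and 225 bp over protein-coding genes. With the pair at most 150 bp apart 6 of 16 members were occupied (37.5%, against 27.7%), and with the pair farther apart, up to 500 bp, 8 of 13 were (61.5%, against 40.2%). The limit of 150 bp was chosen after the distances had been seen.

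Of the 16 summits, 14 lay within 500 bp of the start site of another gene as well. For 8 the member's own start site was the nearest, at MED10 in a tie with PDCD-5. The annotation places 10 of the summits between genes, 3 in an exon and 1 in an intron of the neighbouring gene alone, and 2 inside both MED6 and Naa80. At most occupied members a ChIP peak therefore cannot be assigned to the member or to its neighbour.

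The genes near the 500 bp limit were few. Just inside it were skd at 352 bp and Taf2 at 262 bp. Just outside was MED15, a tail subunit, with its nearest IDR summit at 562 bp and replicate summits at 366, 581 and 363 bp in replicates 1, 2 and 3. The next member out, Taf12, was well beyond the limit, with its nearest IDR summit at 1420 bp, although replicate 1 had a summit at 75 bp. With a limit of 250 bp 13 members were occupied (28.9%), against 17.7% of protein-coding genes, and with 1000 bp 16 were (35.6%), against 27.4%.

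MED7, the partner of MED21 in the yeast middle module, had strong peaks in replicates 1 and 2 and none in the pooled list. The replicate 1 peak at chr3R:10760920-10761359 had a signal of 282, a rank of 4020 and a summit 108 bp upstream of MED7. The replicate 2 peak at chr3R:10760947-10761316 had a signal of 245, a rank of 3166 and a summit 100 bp upstream. Cap-H2 starts 278 bp upstream of MED7 on the opposite strand. Both summits lay between these start sites and cannot be assigned to either gene. The replicate 1 and 2 peaks at MED7 were stronger than 86.6% and 89.4% of the peaks in their lists. The nearest replicate 3 peak was 17029 bp away and the nearest pooled summit 13171 bp away. The base composition resembled that of the occupied members, with 78.2% A and T in the window at chr3R:10761090-10761190 on the minus strand, shown as above because MED7 is the clearest difference between the lists.
MED7: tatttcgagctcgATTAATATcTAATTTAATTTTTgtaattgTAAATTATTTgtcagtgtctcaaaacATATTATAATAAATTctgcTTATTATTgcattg

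Of the strongest 10239 peaks, 257 in replicate 1 (2.51%), 250 in replicate 2 (2.44%) and 152 in replicate 3 (1.48%) overlapped no pooled peak, and 142, 165 and 95 of these overlapped a peak of another replicate. MED7 was thus 1 of a small set of sites of this kind, and their cause was not tested. Inside genes and over 500 bp from any start site, IDR summits fell in 1 member, skd, against 11.6% of protein-coding genes. This gene of 34.6 kb was the only member of 30 kb or more, a class in which 75% of protein-coding genes held such a summit, and the median gene length was 1451 bp for members and 2166 bp for protein-coding genes. It held 4, at distances of 2221, 13866, 15935 and 17651 bp from the more upstream of its 2 start sites, the one used above, with signals of 473, 388, 435 and 813. The first lay in an exon and the other 3 in introns, and each of the 4 was matched among the strongest peaks of replicates 1, 2 and 3.

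The summits of members were rich in A and T. In windows of 50 bases on each side of the summit their share had a median of 73.8% (43.6 to 87.1, n = 16), against 68.3% over the 2904 promoter summits of protein-coding genes, with quartiles of 59.4% and 74.3%. The longest run of A and T had a median of 13.0 bases at member summits and 10 over protein-coding genes. Member summits of higher signal had more A and T, with a Spearman rho of 0.60 over the 16 summits and of 0.40 over 14 without those of MED6, against 0.38 over the 2904. Summits of 1 experiment share their libraries, so these are descriptions. In whole promoters, from 250 bp before to 50 bp after the start site, A and T made up a median of 66.3% at occupied members (62.0 to 71.0) and 63.0% at unoccupied members (51.3 to 72.7), against 62.0% and 61.7% for occupied and unoccupied protein-coding genes. The range of occupied members lay inside that of unoccupied ones.

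**Figure D4:**
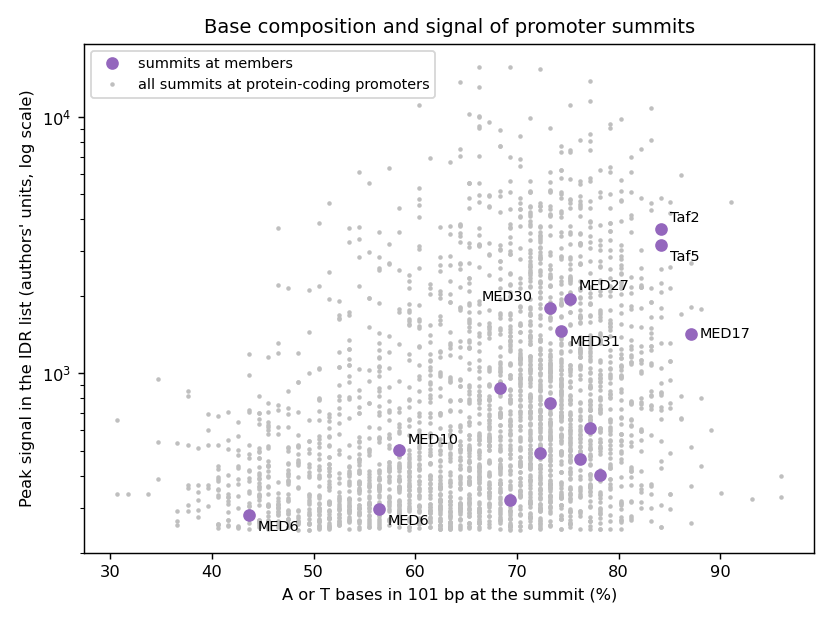
Signal of each summit in the IDR list (log axis, authors' units) plotted against the share of A and T, in percent, in the window of 50 bases on each side of it, for member summits and for the 2904 promoter summits of protein-coding genes. Member summits range from 43.6% at MED6 to 87.1% at MED17, and most lie above the protein-coding median of 68.3%.

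Short motifs of known promoter factors were searched on both strands of the same promoter windows. The DNA replication-related element TATCGATA, the site of the factor Dref, was present in 10 of 45 member promoters (22.2%), against 8.94% of all promoters. Those were MED7, MED8, MED9, MED17, MED18, MED25, MED26, MED28, Taf3 and Tbp, of which MED8, MED17 and MED25 were occupied. Its inner part ATCGAT, which every full element contains, was in 18 (40.0%, against 22.7%). The letters GGTCACAC, the core of a motif of housekeeping promoters, were in 12 (26.7%, against 7.54%), among them the occupied genes MED8, MED10 and Taf5.

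The initiator and GAGA letters were less common in member promoters than over all promoters. The initiator core TCAGT was in 13 member promoters (28.9%, against 51.8%), and GAGAG, bound by GAGA factor, was in 7 (15.6%, against 30.2%). TATAAA was in 25 (55.6%, against 45.3%), GGTATTT in 6 (13.3%, against 9.52%), CACGTG in 2 (4.44%, against 4.26%), CAGCTG in 9 (20%, against 17.9%), AAAAAAA in 14 (31.1%, against 26.7%) and TATATAT in 6 (13.3%, against 15.0%). A match is a description of the letters in the window and not a binding site, and AT-rich words match by chance more often in AT-rich windows.

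The summit windows are shorter than the promoter windows, so shares in the 2 are not like for like. TATCGATA and GGTCACAC were in few summit windows, both at members and over all protein-coding genes. Of the 16 summit windows, 0 held TATCGATA (against 1.24% of the 2904), 0 held GAGAG (against 11.6%), 1 held GGTCACAC (6.25%, against 1.31%), 2 held TCAGT (12.5%, against 15.8%) and 6 held TATAAA (37.5%, against 24.9%). The words AAATATAT, TTTAAAAA and AAAATAAA were picked on IDR summits far from start sites, where they were in 7.20%, 6.70% and 9.01% of windows, against 1.43%, 1.56% and 3.96% of windows 300 bp beside them. At member summits AAATATAT was in 2 (12.5%, against 7.09%), those of Taf2 and Taf13. TTTAAAAA was in 2 (12.5%, against 7.71%), those of MED17 and skd, and AAAATAAA in 3 (18.8%, against 8.44%), those of MED4, MED8 and MED25. The strongest Mediator sites, MED27 and MED30, held none of the 3 words, and neither did Taf5.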

How the data were processed

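ChIP-seq peak lists of 3 replicates of 1 group were analysed. The authors called peaks on each replicate and on the 3 pooled against a control alignment and derived the IDR list from these, per the deposited file lists; dm6 is named per the labels, and which peak caller, aligner and IDR threshold were used is not given in the sources used here. A signal stands in each deposited list, the caller's strength value, compared only within a list, and so does a −log10 q-value, which was not used for a result. The 10239 IDR peaks are the 10239 pooled peaks of highest signal, and the other lists hold 30000 peaks each. The files give no read numbers, so depth is unknown.

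Summits were matched to start sites of Ensembl release 115, on the assembly with the same arm lengths, with pandas 2.3.3 under Python 3.11.15. Genes were occupied with a summit within 500 bp, and a replicate summit matched an IDR summit within 100 bp. Shares have Wilson 95% intervals. No test was run: there is 1 group, and the members, gene lists and motifs were chosen with earlier results of these data known. The matching was tested on simulated summits. Every member is accounted for, with full values for those occupied in the IDR list. Module membership follows general knowledge of the complexes.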

Additional observations from a re-analysis of the deposited data

How the results depend on the processing

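Counts of occupied members kept within 1.5 times of 15 at 250 and 1000 bp, in the pooled list, with 1 start site per gene, with peak overlap and with support from all 3 replicates. With 1 start site per gene 15 members were occupied (33.3%, against 20% of protein-coding genes). Peak overlap gave 10 (22.2%, against 13.0%), at the edge of that range, and support from all 3 replicates gave 11 (24.4%, against 18.3%). The share of protein-coding genes thus moved with the setting as well. The 5119 IDR peaks of highest signal gave 9 members, 7 of Mediator (24.1%, against 13.5% of protein-coding genes), and nearest-gene assignment gave 8 members, 0 of them TBP or TAF genes (against 17.7%). Requiring the peak to overlap a start site gave 7 Mediator genes (24.1%, against 13.0% of protein-coding genes), and the pooled list gave 6 TBP and TAF genes (37.5%, against 37.1%). The mean replicate share was 47.4% with all peaks (against 39.1%) and 22.2% with 5119 peaks each (against 13.9%). The median signal was 497 under nearest-gene assignment, the share upstream was 88.9% in the pooled list, and the A and T median was 70.6% over 51 bp and 69.4% with 100 bases on each side of the summit. Leaving out a replicate did not repeat the peak calling. It kept the IDR peaks that were overlapped by the strongest peaks of both remaining replicates. These counts therefore could not exceed those of the main list, which the left-out replicate had still shaped. They were 11 to 15 members, 9 to 12 Mediator genes and 2 to 3 TBP and TAF genes. Members numbered 12 (26.7%) without replicate 1, 15 (33.3%) without replicate 2 and 11 (24.4%) without replicate 3. The shares of protein-coding genes were 19.2%, 19.5% and 19.6%. The members' mean share over the remaining replicates was 32.2 to 34.4%. All 11 motif shares were lower in the summit windows. Those windows are shorter than the promoter windows and cover occupied members only, so the shares were not compared like for like. The causes were not tested. No paired analysis was possible because there is 1 group. Depth is unknown, so a member without a peak may have one below the limit of detection.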

Other observations

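Other genes of the transcription machinery, none of them a member, were counted in the same way in the IDR list. Of 63 in 9 lists, 20 were occupied (31.7%), against 22.9% of all protein-coding genes, and the lists are too short to be told apart. RNA polymerase II had 5 of 12, with the highest signals at Polr2B (2182) and Polr2H (1036). TFIIH, the factor that opens promoter DNA, had 4 of 10, led by Ssl1, whose summit 181 bp upstream had a signal of 8927, and Tfb5 (374). SAGA and ATAC, the histone acetyltransferase complexes, had 5 of 20, led by Gcn5 (2301) and wda (1099). Here too a summit counted for every gene within reach. Given to the nearest coding start site only, the summits of Ssl1, Gcn5 and Polr2H went to Chro, ver and CG11247. The summit of Polr2B stayed with Polr2B.

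Of the other general transcription factors 1 of 9 was occupied, TfIIA-L (1028). Of the TBP-related factors Trf2 (382) was occupied and Trf was not. Brf (3173), of the RNA polymerase III machinery and not itself a TBP-related factor, was counted in the same list and was occupied. The TBP regulators NC2alpha (973) and Hel89B (509) were occupied and NC2beta was not. TAF1B (303) of the RNA polymerase I machinery was occupied, while the Mediator gene ix and the testis TAF genes can, mia, nht and sa were not.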
